A study of Homo sapiens with 6 samples.

Results

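HERVE and LTR2 elements are copies of the HERV-E group of human endogenous retroviruses and of the long terminal repeats (LTRs) that flank them. They were taken from the read counts of single repeat loci by name. The names HERVE-int and HERVE_a-int mark internal parts, and LTR2, LTR2B and LTR2C mark the terminal repeats. Of 433837 listed loci, 312 carried 1 of these 5 names. There were 78 loci of HERVE-int, 26 of HERVE_a-int, 123 of LTR2, 40 of LTR2B and 45 of LTR2C. All libraries came from HEK293T, an established line of human embryonic kidney origin that expresses the large T antigen of SV40. The tested libraries, 3 in number, came from cells transfected with a chemically modified chimeric antisense oligonucleotide (ASO) against U7 snRNA, labelled as a U7 snRNA knockdown. The other 3 came from cells given an ASO against GFP as control, labelled as wild type. Both ASOs were used at 100 nM with the transfection reagent Lipofectamine 2000, and the RNA was total RNA depleted of ribosomal RNA. The libraries are described as biological replicates, and whether each had its own culture is not stated.

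Endogenous retroviruses are remains of ancient infections of the germ line. A complete copy has an internal part with remnants of the viral genes between a pair of LTRs, and recombination between the LTRs often leaves a single LTR behind. LTRs hold the viral promoter and polyadenylation signal, and HERV-E LTRs are known as alternative promoters of some human genes in placenta. HERV-E transcripts are also known from clear cell kidney cancer. U7 snRNA belongs to the particle that cleaves histone pre-mRNAs at their 3′ ends, and the series title concerns its part in repressing HERV1/LTR12 elements and lincRNAs.

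The counts gave few reads for these elements. Libraries held 1926892 to 2819540 reads in all listed repeats, which is not the sequencing depth. HERVE and LTR2 elements took 1618, 1916 and 2118 reads in the U7 ASO libraries and 1876, 1715 and 2283 in the control libraries. The targeted RNA could not be checked, since repeats with the name U7, 16 loci in all, had 10, 4 and 6 reads with the U7 ASO and 10, 6 and 12 in the controls. The tables hold no gene rows, so no marker of the cell type could be read. LTR12 and HERV9 elements, the subject of the series title, took 3.18%, 2.01% and 2.30% of repeat reads in the U7 ASO libraries and 0.213%, 0.214% and 0.266% in the controls.

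Summed over all names, HERVE and LTR2 elements were lower after the U7 ASO. Most of the difference lay in LTR2C and LTR2B, and a single LTR2C locus carried much of it. The summed level of HERVE and LTR2 elements was 761, 788 and 754 CPM (the read count divided by the TMM-scaled library size) in the U7 ASO libraries, against 1004, 920.4 and 1101 CPM in the control libraries. Every U7 ASO library lay below every control library. The means were 767 ± 18.0 CPM with the U7 ASO and 1009 ± 90.4 CPM in the controls (SD, n = 3 each), a ratio of 0.761. As shares of all repeat reads, which change with the LTR12 and HERV9 reads as well, these were 0.0774%, 0.0816% and 0.0751% with the U7 ASO and 0.0926%, 0.0890% and 0.115% in the controls. Without the locus LTR2C_dup5_4509746 the sum was 669 ± 58.9 CPM with the U7 ASO and 769.7 ± 51.1 CPM in the controls, a ratio of 0.869. The groups still lay apart in CPM, by a narrow gap (602, 712 and 693 CPM with the U7 ASO, 773, 717 and 819 CPM in the controls). As shares of repeat reads the groups then overlapped (0.0612%, 0.0737% and 0.0691% with the U7 ASO, 0.0713%, 0.0693% and 0.0857% in the controls). No test was made on these sums, because the elements were chosen with results of these data known. In bulk RNA, fewer cells with a transcript and less of it per cell cannot be told apart.

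The terminal repeats LTR2B and LTR2C were the names with lower values in all 3 U7 ASO libraries. Of the 5 names, 1 (LTR2C) fell, 0 rose and 4 did not pass the test (edgeR quasi-likelihood test, adjusted p under 0.05). Over all 2236 tested names 2.55% were called, 1.03% lower and 1.52% higher. An unadjusted p under 0.05 was reached by 2 of the 5 names, LTR2B and LTR2C, and by 326 of all tested names. The 3 U7 ASO libraries lay below the 3 controls for the same 2 names, where 10.2% of all tested names did so, and above them for 0 of 5, where 9.93% did so. The median log2 fold change of the 5 names was −0.50, beside −0.01 over all tested names.

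**Figure D1:**
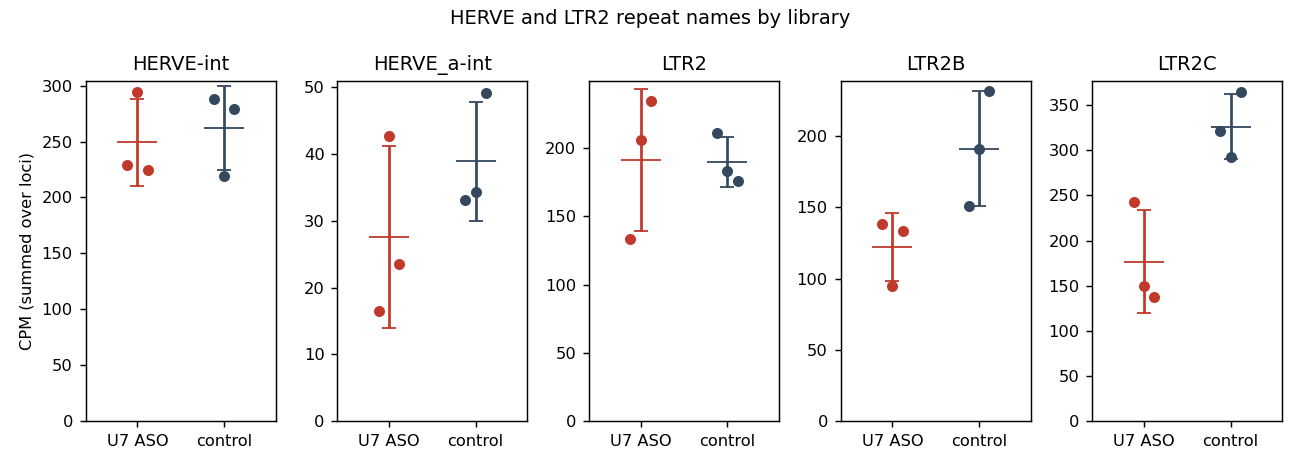
CPM of each HERVE and LTR2 name, summed over its loci, in the 3 U7 ASO libraries (red) and the 3 control ASO libraries (dark), with the mean (horizontal mark) and SD (bars). The groups lie apart for LTR2B and LTR2C and overlap for HERVE-int, HERVE_a-int and LTR2; each panel has its own scale.

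HERVE-int, the internal part in which the remnants of the viral genes lie, showed no difference that passed. Its level was 229, 294 and 224 CPM in the U7 ASO libraries and 288, 219 and 279 CPM in the control libraries. The highest value came from a U7 ASO library and the lowest from a control, and the groups overlapped. The means were 249 ± 39.1 CPM with the U7 ASO and 262 ± 37.6 CPM in the controls (SD, n = 3 each; log2 fold change −0.07, SE 0.21, 95% interval −0.51 to 0.37, adjusted p = 0.919, edgeR). A fall of the size seen for LTR2C lay outside this interval.

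HERVE_a-int, a variant name of the internal part with the fewest reads of the 5, also did not pass. It held 35, 104 and 66 reads in the U7 ASO libraries and 62, 64 and 102 in the controls, with overlap. These were 27.6 ± 13.6 CPM with the U7 ASO and 38.9 ± 8.92 CPM in the controls (SD, n = 3 each; log2 fold change −0.50, SE 0.40, 95% interval −1.34 to 0.34, adjusted p = 0.642, edgeR). The interval is wide, and a fall like that of LTR2C was not excluded at this depth.

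LTR2, the terminal repeat with the most listed copies, stood at nearly equal means. It measured 134, 206 and 235 CPM in the U7 ASO libraries and 211, 183 and 176 CPM in the controls. The lowest and the highest value were both from U7 ASO libraries. The means were 192 ± 52.2 CPM with the U7 ASO and 190.0 ± 18.5 CPM in the controls (SD, n = 3 each; log2 fold change 0.01, SE 0.24, 95% interval −0.48 to 0.51, adjusted p = 0.988, edgeR).

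LTR2B was lower in each U7 ASO library than in any control but did not pass after adjustment. Its level was 139, 94.5 and 133 CPM with the U7 ASO and 151, 191 and 232 CPM in the controls. The gap between the groups was narrow, with the highest U7 ASO library close under the lowest control. The means were 122 ± 24.1 CPM with the U7 ASO and 191 ± 40.5 CPM in the controls (SD, n = 3 each; log2 fold change −0.65, SE 0.24, 95% interval −1.16 to −0.14, adjusted p = 0.202, edgeR).

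LTR2C was the name that fell. Its level was 243, 149.6 and 138 CPM in the U7 ASO libraries, against 321, 293 and 365 CPM in the control libraries. U7 ASO replicate 1 stood nearest to the controls, and it was also the U7 ASO library with the largest share of LTR12 and HERV9 reads. The means were 177 ± 57.4 CPM with the U7 ASO and 326 ± 36.1 CPM in the controls (SD, n = 3 each; log2 fold change −0.89, SE 0.23, 95% interval −1.38 to −0.40, adjusted p = 0.0492, edgeR). The call was lost in 10 of 16 alternatives, among them each omission of 1 library other than U7 ASO replicate 1, with adjusted p-values from 0.00151 to 0.842 over all 16.

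Whether LTR2C moved apart from the other names was compared within libraries, as reads of LTR2C per read of the other name. This comparison of 4 ratios was added after the values were seen. Per read of HERVE-int, LTR2C had 1.06, 0.508 and 0.614 reads in the U7 ASO libraries and 1.12, 1.34 and 1.31 in the controls, with no overlap (exact two-sided permutation p = 0.1, the smallest that 3 libraries against 3 can give; adjusted p = 0.4 over the 4 ratios). Per read of LTR2 the values were 1.82, 0.725 and 0.586 with the U7 ASO and 1.52, 1.601 and 2.07 in the controls, which overlap (exact permutation p = 0.3). The ratios to LTR2B and HERVE_a-int overlapped too (exact permutation p = 0.6 and 0.7). With 3 libraries a group, none of the 4 ratios could have passed after adjustment, so whether LTR2C differed from the other names is not answered by this test.

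The reads of LTR2C came mostly from 1 locus, LTR2C_dup5_4509746. It held 338, 184 and 171 reads in the U7 ASO libraries and 432, 379 and 585 reads in the control libraries. This was 65.5%, 50.5% and 44.2% of the LTR2C reads with the U7 ASO and 72.0%, 69.4% and 77.4% in the controls. All 3 U7 ASO libraries lay below all 3 controls in reads, in CPM and in this share. Tested as a locus its log2 fold change was −1.10 (SE 0.34, 95% interval −1.83 to −0.38, adjusted p = 0.0936, edgeR), so it did not pass. It passed in 6 of 15 alternatives, with adjusted p-values from 0.0166 to 0.465. It carried 93.9% of the difference in LTR2C, and without the leading locus of each name LTR2C had a log2 fold change of −0.16 (adjusted p = 0.842, edgeR).

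Nothing else near LTR2C_dup5_4509746 held many reads. Within 20 running numbers, the order given by the last number of each deposited identifier, whose tie to genome position is not stated, 11 other repeats were listed, and 1 of them passed the count filter. This was MIR_dup3153_4509743, a copy of an old short interspersed repeat, with 15, 21 and 12 reads in the U7 ASO libraries and 20, 15 and 20 in the controls (log2 fold change −0.30, SE 0.72, adjusted p = 0.952, edgeR). No HERVE-int or HERVE_a-int locus was listed in this window, so no internal part was read beside this LTR.

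A second LTR2C locus went the other way. LTR2C_dup29_3109663 held 49, 40 and 40 reads in the U7 ASO libraries, against 0, 2 and 0 reads in the control libraries. The U7 ASO libraries held 129 reads together and the controls 2, a ratio of 59.1 after scaling (exact 95% interval 16.0 to 494, which takes each read as independent and is too narrow if both mates of a fragment were counted). Its rise passed the test (adjusted p = 0.00315, edgeR), and the call was lost without U7 ASO replicate 1 (adjusted p = 0.0910) and under limma-voom (adjusted p = 0.0581). The locus passed the count filter only through the U7 ASO libraries, where it is high. Its p-value and ratio are therefore no independent support for the rise. It was 1 of 38 tested HERVE and LTR2 loci called higher, where 4.49% of all 14380 tested loci were called higher and 4.96% in either direction.

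LTR2C_dup29_3109663 lies 2 running numbers from an LTR12C locus that was also called higher. LTR12C_dup76_3109661 held 106, 34 and 85 reads in the U7 ASO libraries and 2, 0 and 0 in the controls (adjusted p = 0.000482, edgeR). Between them lies MIR_dup5201_3109662, with 75, 24 and 64 reads in the U7 ASO libraries and 0 reads in each control (adjusted p = 0.000752, edgeR), and its adjusted p was 0.0504 without U7 ASO replicate 1. The LTR12C locus had an adjusted p of 0.0537 with limma-voom. The MIR and LTR12C loci, too, passed the count filter only through the U7 ASO libraries. These 3 neighbouring repeats had 24 to 106 reads in every U7 ASO library and at most 2 in a control, and the other 3 listed repeats of the window had at most 4 reads in a library. Of the 312 HERVE and LTR2 loci, 18 lay within 20 running numbers of a listed LTR12 or HERV9 locus, and LTR2C_dup29_3109663 was the only one of them near such a locus called higher. The part of the LTR12C locus in its rise was not tested.

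**Figure D2:**
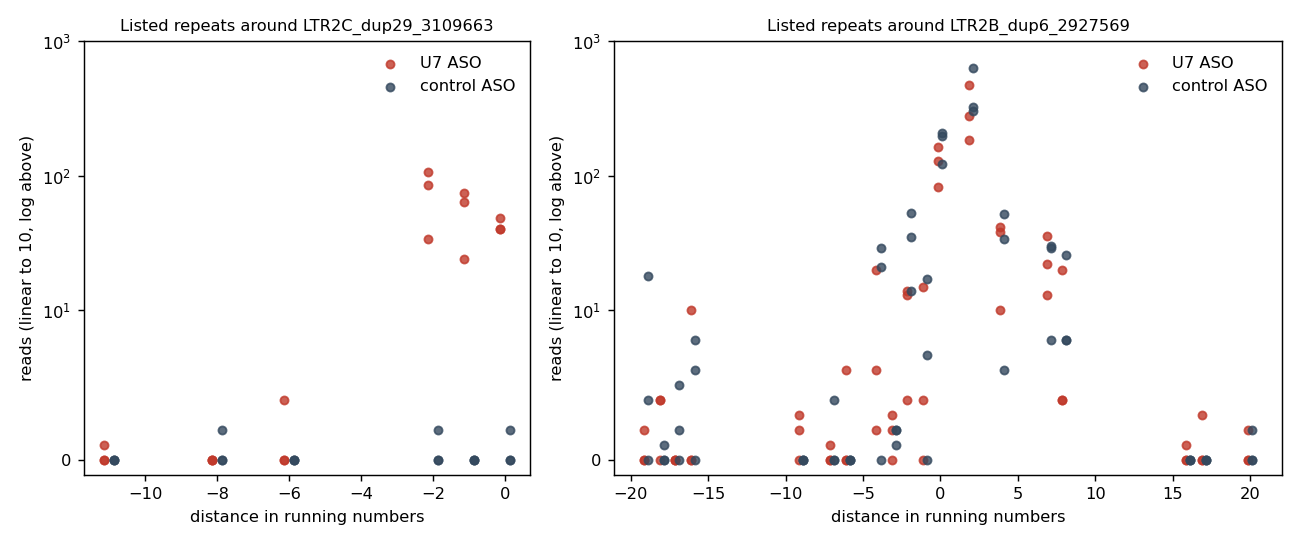
Reads of every listed repeat within 20 running numbers of LTR2C_dup29_3109663 (left) and of LTR2B_dup6_2927569 (right), 1 point per library, in U7 ASO (red) and control ASO libraries (dark); the vertical axis is linear to 10 reads and logarithmic above. On the left, the LTR2C locus at 0, a MIR locus at −1 and an LTR12C locus at −2 hold 24 to 106 reads in the U7 ASO libraries and at most 2 in a control; on the right, the block from 0 to 8 holds reads in both groups.

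With both of these loci set aside, the 43 other LTR2C loci were also lower. They held 129, 140 and 176 reads in the U7 ASO libraries and 168, 165 and 171 in the controls. After scaling these were 60.6, 57.6 and 62.6 CPM with the U7 ASO and 89.9, 88.6 and 82.5 CPM in the controls, a ratio of means of 0.693. The groups did not overlap. The loci were set aside after their values were seen, so this is a description and has no test.

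**Figure D3:**
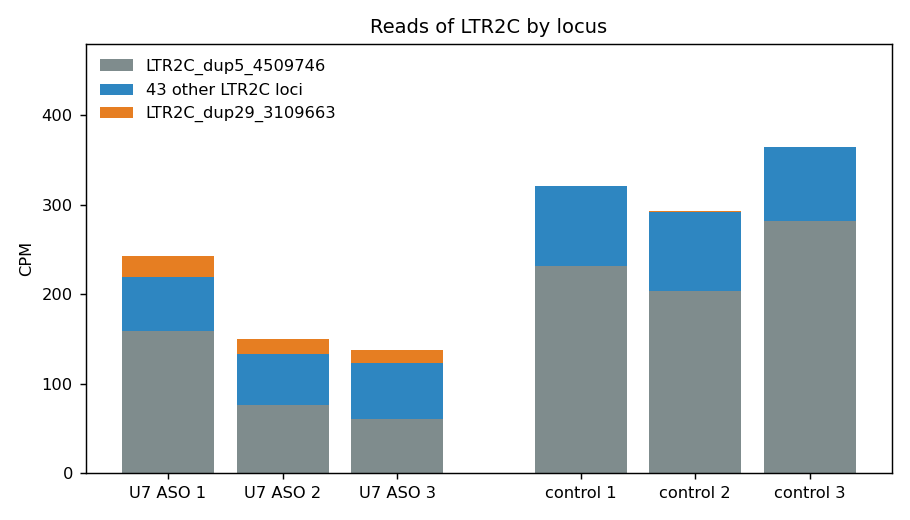
CPM of LTR2C in each library, stacked by locus: LTR2C_dup5_4509746 (grey), the 43 other loci (blue) and LTR2C_dup29_3109663 (orange). The grey part is smaller in all 3 U7 ASO libraries than in the controls, and the orange part is seen in the U7 ASO libraries alone at this scale.

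LTR2B, too, drew most of its reads from few copies. LTR2B_dup6_2927569 held 83, 128 and 164 reads in the U7 ASO libraries and 123, 207 and 198 in the controls (log2 fold change −0.64, SE 0.34, adjusted p = 0.534, edgeR). It gave 44.7% of the LTR2B reads over the 6 libraries, and 59.1% of the difference in LTR2B between the groups. LTR2B_dup14_1670178 held 45, 34 and 65 reads with the U7 ASO and 86, 46 and 140 in the controls (log2 fold change −1.04, SE 0.45, adjusted p = 0.337, edgeR). LTR2B_dup10_4271134 held 24, 21 and 24 reads with the U7 ASO and 19, 27 and 60 in the controls (adjusted p = 0.793, edgeR). All 4 tested LTR2B loci had a fitted value below 0, and none passed.

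The block around LTR2B_dup6_2927569 has an LTR2B locus at each end of the running order and internal parts between. LTR2B_dup6_2927569 is followed by Harlequin-int_dup1_2927571 and Harlequin-int_dup3_2927573, loci of another internal name of class I elements, then by HERVE_a-int_dup6_2927576 and LTR2B_dup7_2927577. Harlequin-int is a mosaic element that holds HERVE-related stretches. Harlequin-int_dup1_2927571 held the most reads of the block, with 186, 279 and 472 in the U7 ASO libraries and 304, 328 and 637 in the controls (log2 fold change −0.58, SE 0.35, adjusted p = 0.636, edgeR). HERVE_a-int_dup6_2927576 held 13, 36 and 22 reads with the U7 ASO and 8, 30 and 29 in the controls (log2 fold change −0.04, SE 0.70, adjusted p = 0.994, edgeR). Harlequin-int_dup3_2927573 held 10, 38 and 42 reads with the U7 ASO and 6, 34 and 52 in the controls (adjusted p = 0.9751, edgeR). On the other side of the LTR2B locus, AluSg4_dup40_2927567 held 4, 13 and 14 reads with the U7 ASO and 35, 53 and 14 in the controls (adjusted p = 0.273, edgeR), and L2a_dup290_2927565 held 2, 6 and 20 with the U7 ASO and 0, 21 and 29 in the controls (adjusted p = 0.907, edgeR). None of these loci passed. In reads the groups overlapped or met at each of them, and in CPM they lay apart at AluSg4_dup40_2927567 alone.

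Internal HERVE-int reads were spread over more copies. The locus with the most reads, HERVE-int_dup1_3996144, gave 16.2% of them. It held 60, 134 and 168 reads in the U7 ASO libraries and 48, 63 and 72 in the controls (log2 fold change 0.84, SE 0.40, adjusted p = 0.435, edgeR). U7 ASO replicates 2 and 3 were above all controls and U7 ASO replicate 1 was among them. It lies between LTR2_dup9_3996141 and LTR2_dup10_3996145. The first of these LTRs held 21, 25 and 41 reads with the U7 ASO and 6, 31 and 31 in the controls, and the second 11, 10 and 3 with the U7 ASO and 4, 0 and 4 in the controls. The groups overlapped in reads at both LTRs and at the internal part.

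The next HERVE-int loci by reads, HERVE-int_dup6_4004862 and HERVE-int_dup11_3757488, had lower means with the U7 ASO, and neither passed. HERVE-int_dup6_4004862 held 49, 49 and 62 reads with the U7 ASO and 72, 57 and 87 in the controls (log2 fold change −0.56, SE 0.38, adjusted p = 0.703, edgeR). It is 1 of 7 consecutive HERVE-int loci with no listed LTR2 name among them. HERVE-int_dup5_4004861, beside it, held 51, 52 and 9 reads with the U7 ASO and 27, 26 and 45 in the controls (adjusted p = 0.979, edgeR). HERVE-int_dup9_4004865 and HERVE-int_dup10_4004866, in the same run, had adjusted p-values of 0.933 and 0.911 (edgeR), and L2a_dup1596_4004842, an older element before the run, 0.722. HERVE-int_dup11_3757488 held 25, 39 and 33 reads with the U7 ASO and 54, 30 and 45 in the controls (log2 fold change −0.53, SE 0.48, adjusted p = 0.838, edgeR). None of the 4 tested loci among the 7 consecutive ones passed, and the direction of HERVE-int_dup5_4004861 reversed in 5 of 15 alternatives.

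LTR2 reads were the most evenly spread, with 8.01% in the leading locus and 21.8% in the leading 3. LTR2_dup21_4696768 held 4, 38 and 82 reads in the U7 ASO libraries and 32, 22 and 26 in the controls (adjusted p = 0.934, edgeR). U7 ASO libraries were both the lowest and the highest there. LTR2_dup22_4696773, 5 running numbers on, held 16, 23 and 33 reads with the U7 ASO and 42, 25 and 18 in the controls (adjusted p = 0.930, edgeR). LTR2_dup62_404306 held 10, 56 and 32 reads with the U7 ASO and 40, 28 and 28 in the controls (adjusted p = 0.983, edgeR). LTR2_dup16_5214815, the locus with the largest part in the small difference of the name, held 22, 10 and 34 reads with the U7 ASO and 13, 0 and 0 in the controls (log2 fold change 2.16, SE 1.33, adjusted p = 0.638, edgeR). The groups overlapped at each of these 4 loci.

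The remaining LTR2C loci among the leading ones were LTR2C_4912139 and LTR2C_dup6_5292770. LTR2C_4912139 held 40, 18 and 46 reads with the U7 ASO and 56, 53 and 32 in the controls (adjusted p = 0.825, edgeR). LTR2C_dup6_5292770 held 20, 28 and 16 reads with the U7 ASO and 58, 13 and 8 in the controls (adjusted p = 0.943, edgeR), and control replicate 1 was the high library there. In HERVE_a-int the leading locus of the difference was HERVE_a-int_dup1_4925629, with 0, 2 and 0 reads with the U7 ASO and 10, 10 and 3 in the controls, which did not pass the count filter. The 1 tested repeat near it, Tigger17c_dup7_4925613, had an adjusted p of 0.851 (edgeR).

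Over single loci, 38 of the 312 passed the count filter. These were 16 of HERVE-int, 1 of HERVE_a-int, 11 of LTR2, 4 of LTR2B and 6 of LTR2C, and they held 65.3% to 78.6% of the HERVE and LTR2 reads of a library. The 274 others had a median of 8 reads over all 6 libraries and at most 40 in 1 library. The filter asks for enough reads in 3 libraries, so a locus with reads in 1 group only passes through that group. Of the 38, 0 were called lower, where 0.473% of all tested loci were, and 4 had an unadjusted p under 0.05, beside 1768 of all 14380 tested loci. DESeq2 called 1 lower, LTR2C_dup5_4509746. The fitted value was below 0 for 24 loci and above 0 for 14, with a median log2 fold change of −0.39 beside 0.06 over all tested loci. Standard errors ran from 0.34 to 1.64 on the log2 scale, so most single loci would not show a change of the size seen for LTR2C.

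By name, the fitted value was below 0 for 5 of 6 tested LTR2C loci, 4 of 4 LTR2B loci, 9 of 16 HERVE-int loci and 5 of 11 LTR2 loci. All 3 U7 ASO libraries lay below all 3 controls in CPM at 3 of the 38 loci, and above them at 2. Over all tested loci these shares were 8.36% below and 12.2% above. The 3 were LTR2C_dup5_4509746, HERVE-int_dup6_4004862 and LTR2B_dup33_404356. The last held 6, 0 and 0 reads with the U7 ASO and 12, 10 and 20 in the controls (adjusted p = 0.609, edgeR). The 2 higher ones were LTR2C_dup29_3109663 and HERVE-int_dup2_2003742, which held 20, 38 and 28 reads with the U7 ASO and 6, 4 and 4 in the controls (log2 fold change 2.47, SE 0.81, adjusted p = 0.136, edgeR). LTR2B_dup33_404356 and HERVE-int_dup2_2003742 are named because their groups do not overlap.

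**Figure D4:**
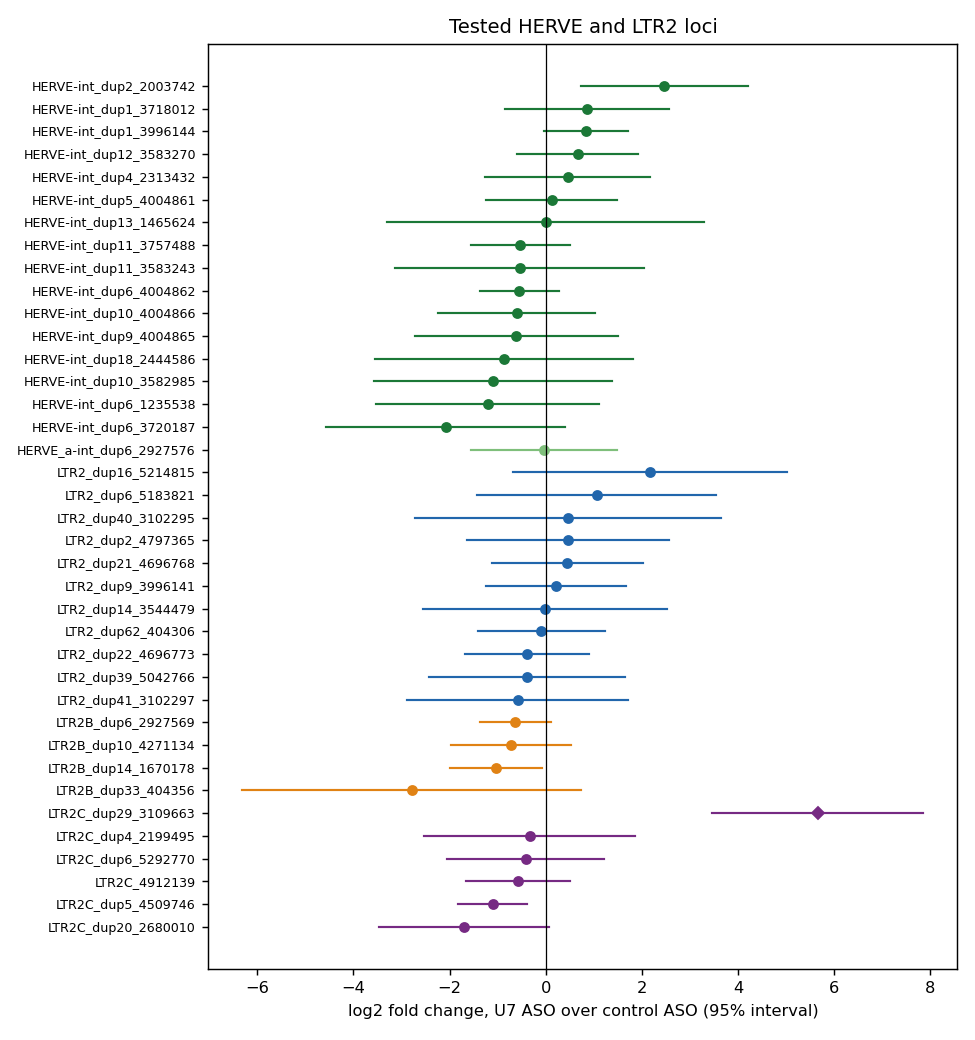
Log2 fold change (U7 ASO over control ASO, from edgeR) with its 95% interval for the 38 tested HERVE and LTR2 loci, ordered by name and value and coloured by name; a diamond marks a locus with an adjusted p under 0.05. LTR2C_dup29_3109663, at 5.65, is the single diamond, and the intervals of most other loci span 0.

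Most HERVE and LTR2 loci were read in few libraries. Of the 312, 31 had a read in all 6 libraries and 144 in 1 library only. Reads in both groups were found at 136 loci, in U7 ASO libraries alone at 122 and in control libraries alone at 54. No locus read in 1 group only had more than 30 reads in total. A U7 ASO library had reads at 122 to 148 of them, and a control library at 94 to 119. The U7 ASO libraries also held more repeat reads, and over all repeats they had reads at 118352 to 160749 loci, against 96631 to 120658 in the controls. The numbers were not compared at equal depth. The split by group was not counted over all repeats, so 122 against 54 is not read as a trait of these elements.

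The running numbers also show which loci stand together. With loci at most 20 numbers apart joined, the 312 loci formed 241 groups, of which 195 were single loci and the largest held 7. An LTR and an internal part stood together in 19 groups. Of the terminal repeats, 94 of 123 LTR2 loci, 28 of 40 LTR2B loci and 34 of 45 LTR2C loci stood alone, against 27 of 78 HERVE-int loci and 12 of 26 HERVE_a-int loci. Loci with no read in any library are not listed, so a locus alone here may still have unread neighbours. Taken over all loci, LTR names held 2.09, 1.34 and 2.04 reads per read of the internal names in the U7 ASO libraries and 2.13, 2.63 and 2.35 in the controls. LTR names summed to 490 ± 34.8 CPM with the U7 ASO and 708 ± 56.9 CPM in the controls, and internal names to 277 ± 52.2 CPM with the U7 ASO and 301 ± 41.5 CPM in the controls (SD, n = 3 each). The LTR sums of the groups lay apart and the internal sums overlapped. Harlequin-int, which holds HERVE-related stretches, is not counted among these internal names. It held 634, 882 and 1242 reads with the U7 ASO and 725, 849 and 1425 in the controls. The ratios and internal sums therefore cover HERVE-int and HERVE_a-int only.

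A chosen list of other names of class I endogenous retroviruses was set beside these values. It was picked with results of these data known, leaves out LTR12, HERV9 and further class I names, and does not stand for the whole class. Of its 33 names, all tested, 2 rose, 0 fell and 31 did not pass, with a median log2 fold change of 0.08. The 2 were LTR2752 and LTR9, both terminal repeats. LTR2752 measured 56.4, 61.7 and 54.8 CPM in the U7 ASO libraries and 14.99, 9.66 and 1.93 CPM in the controls (log2 fold change 2.71, SE 0.50, adjusted p = 0.00227, edgeR). LTR9 measured 51.2, 73.6 and 92.1 CPM with the U7 ASO and 36.4, 16.1 and 13.02 CPM in the controls (log2 fold change 1.73, SE 0.40, adjusted p = 0.0158, edgeR). LTR9 lost its call without U7 ASO replicate 2 or 3 and without control replicate 2 or 3, with adjusted p-values of 0.0590 to 0.182 (edgeR). Harlequin-int, the internal name read beside LTR2B, was at 368 ± 72.0 CPM with the U7 ASO and 510 ± 157 CPM in the controls (log2 fold change −0.47, SE 0.23, adjusted p = 0.345, edgeR). Of the 33, 2 had a fitted value below that of LTR2C, and the lower of them, LTR30, was at 40.0, 20.6 and 26.3 CPM with the U7 ASO and 78.7, 71.4 and 57.4 CPM in the controls (log2 fold change −1.26, SE 0.34, adjusted p = 0.0552, edgeR).

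**Figure D5:**
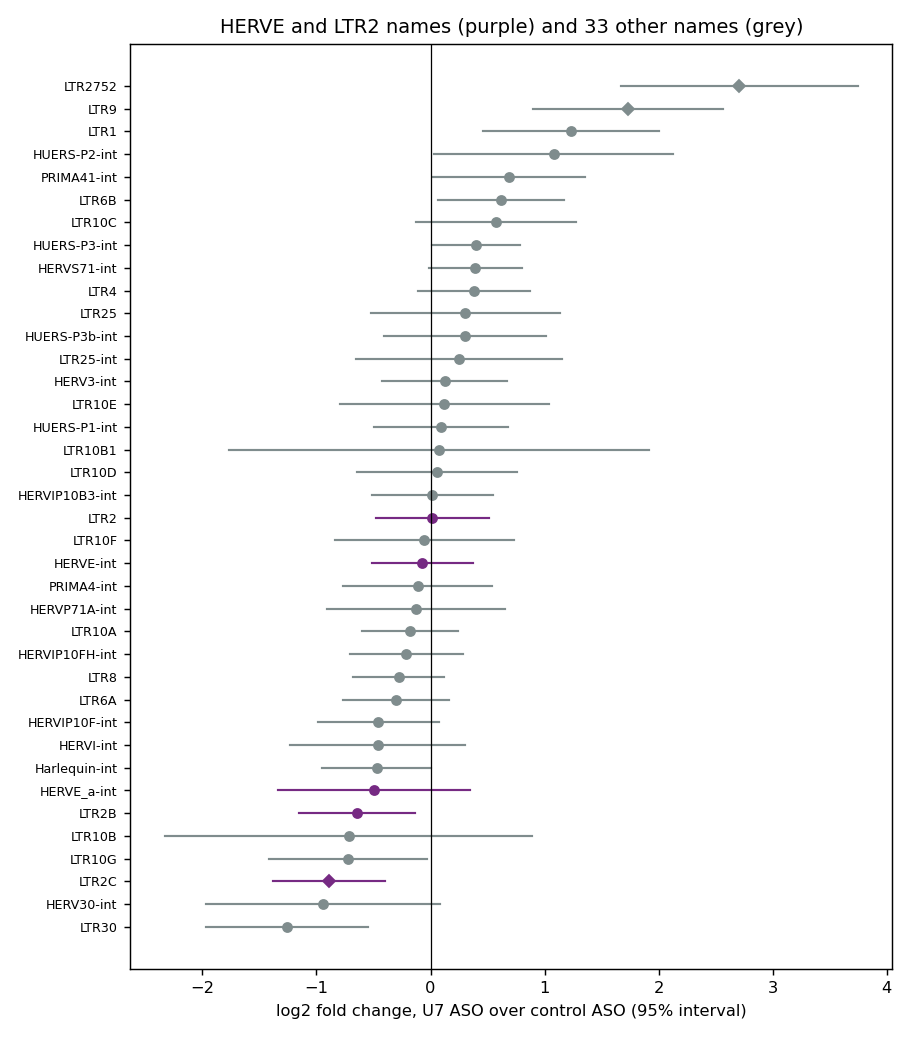
Log2 fold change (U7 ASO over control ASO, from edgeR) with its 95% interval for the 5 HERVE and LTR2 names (purple) and the 33 listed other names of class I endogenous retroviruses (grey); a diamond marks an adjusted p under 0.05. LTR2C, at −0.89, is the only diamond below 0, and LTR9 and LTR2752, at 1.73 and 2.71, are the only ones above it.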

How the data were processed

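The authors deposited raw read counts per repeat locus, 1 table per library, made with STAR 2.5.3a and featureCounts 1.5.0-p1 on GRCh38, per the submitters' processing notes. For the repeat annotation, strand setting, multi-mapping reads and mates, the choices made are not stated in the labels. Of counts above 0, 73.3% to 79.0% were even. Both mates of a fragment may have been counted, which was not tested, and counts are called reads here. The tables give no coordinates, lengths or sequences, so none is printed, and levels are not compared between names. Reads of near-identical copies could have been placed on another copy, and reads of a transcript crossing a locus could not be told from its own.

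Counts of single loci, and counts summed by name, were tested with edgeR 4.0.16 under R 4.3.3 (quasi-likelihood, two-sided, TMM scaling, filterByExpr with a minimum count of 10 and a minimum total of 15). P-values were Benjamini-Hochberg adjusted over all 2236 names or 14380 loci tested, with calls at 0.05. CPM refers to the names' scaling unless a locus test is given. The code was tested on simulated counts. DESeq2 1.42.0 and limma 3.58.1 (voom) were alternatives. P-values from edgeR, DESeq2 and limma-voom set the difference between the groups against the spread between these libraries. Whether that spread is one between separate cultures is not stated. Exact intervals cover at most counting error.

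The names, lists and tests were chosen with earlier results of these data known. Named loci were those called, the leading locus of each name, the 3 tested loci of each name with the most reads, and tested repeats within 20 running numbers of the called and leading loci.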

Additional observations from a re-analysis of the deposited data

How the results depend on the processing

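Of 42 values recomputed, 22 kept their direction and their side of the threshold in every alternative. LTR2C kept its direction in all 16, but lost its call with RLE scaling (log2 fold change −0.88, adjusted p = 0.05001), library totals only (−0.84), TMM factors without LTR12 and HERV9 (−0.88), a test against a fold of 1.5 (−0.89) and without leading loci (−0.16). In these 5 settings 0 of the 5 names were called lower. Over omissions of 1 library its log2 fold change ran from −1.17 to −0.73, and 0 to 1 names were called lower. Among loci, 1 was called lower with upper-quartile scaling, no count filter, DESeq2, limma-voom and the replicate block, and 0 to 1 over omissions of 1 library. The number called higher was 0 with limma-voom and 0 to 1 over those omissions. The log2 ratio of the summed level, −0.39, was −0.20 without LTR2C_dup5_4509746, which holds many of the reads, and −0.46 to −0.20 over its 9 alternatives.

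Reversals were found among values that had not passed. HERVE-int was at 0.015 without leading loci and between −0.20 and 0.014 over omissions of 1 library. LTR2 was at −0.0085 with limma-voom, −0.017 with the replicate block, −0.038 without leading loci and between −0.15 and 0.23 over omissions. HERVE-int_dup5_4004861 was at −0.019 with upper-quartile scaling, −0.32 with limma-voom, −0.11 with the replicate block and between −0.19 and 0.65 over omissions. HERVE_a-int_dup6_2927576 was at 0.056 with limma-voom, 0.040 with the block and between −0.50 and 0.29 over omissions. Harlequin-int_dup3_2927573 was at 0.080 with limma-voom, 0.0098 with the block and between −0.65 and 0.34 over omissions. LTR2C_dup6_5292770 was at 0.043 with limma-voom, 0.044 with the block and between −0.89 and 0.89 over omissions. LTR2_dup21_4696768 was at −0.20 with limma-voom, −0.012 with the block and between −0.37 and 0.98 over omissions. HERVE-int_dup10_4004866 ran from −0.93 to 0.074 and LTR2_dup62_404306 from −0.78 to 0.32 over omissions. The cause was not tested. LTR9 lost its call in 5 of 15 alternatives (adjusted p up to 0.182), and LTR30 passed in 7 of 15.

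Deviations of same-numbered libraries were at most weakly correlated over names (r = 0.11, −0.03 and 0.12 for replicates 1, 2 and 3). With 3 libraries a group, these values cannot decide whether the numbers pair the samples. With the replicate block 59 names rose and 74 fell, beside 34 and 23 without it, and LTR2C had an adjusted p of 0.00849. The number of lowered names was 7 with a fold of 1.5, 44 if low counts were kept, 41 with DESeq2 and 41 with limma-voom, and 8 to 76 over omissions. Limma-voom called 341 loci higher beside 645, and omissions of 1 library called 293 to 624. The number of lowered loci, 68, was 151 with DESeq2, 38 with a fold of 1.5 and 16 to 41 over omissions. Upper-quartile scaling put the median of all tested loci at −0.09, beside 0.06 with TMM. The low counts limit single loci most.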
